A study of Homo sapiens with 9 samples.

Results

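Accessible sites at the PYHIN gene cluster on the long arm of chromosome 1 were described in HEK293T, a transformed cell line of human embryonic kidney origin, from ATAC-seq, in which a transposase inserts sequencing adapters into open DNA. The cluster holds IFI16, AIM2, MNDA and PYHIN1. Its peaks were chosen by position, as every deposited peak in the span of these 4 genes or within 50 kb of one. The rule found 14 of 194414 peaks, which formed 5 of 71597 merged regions. IFI16 had been picked for attention because a peak lay near it in every knockout list and not in the control list, so that pattern is given as a description and no test was made of it.

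Each group is 1 deposited peak list. The control cells received a guide that targets no mammalian gene (WT genotype, 2 libraries, batches 2 and 3). The IGF2BP1 gene knockout had 3 libraries, from batches 1, 2 and 3, and the IGF2BP2 and IGF2BP3 gene knockouts had 2 each, from batches 2 and 3. IGF2BP1, IGF2BP2 and IGF2BP3 are RNA-binding proteins that act on messenger RNA stability and translation. All cells were otherwise untreated. Each knockout was a single clone, grown from a sorted GFP-positive cell after transient transfection with plasmids carrying 3 guides, so the effects of the genotype and of the clone cannot be told apart. The lists give no value per library, so the spread between replicates is unknown, and none of the differences below was tested or computed within a batch.

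PYHIN proteins pair an N-terminal pyrin domain, which recruits other pyrin proteins, with 1 or more C-terminal HIN domains, which bind double-stranded DNA. AIM2 detects DNA in the cytosol and nucleates an inflammasome, the caspase-1 platform that matures interleukin-1. IFI16 detects viral DNA in the nucleus and cytosol and can signal through STING to type I interferon. MNDA is known as a nuclear antigen of myeloid cells, PYHIN1 (also IFIX) is a nuclear DNA-binding protein, and the family is induced by interferons. PYDC5, a pyrin-only protein that restrains these sensors, lies at the lower end of the IFI16 span.

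The lists held 39194 peaks in the control, 50917 in the IGF2BP1 knockout, 60262 in the IGF2BP2 knockout and 44041 in the IGF2BP3 knockout, with median widths of 771, 834, 651 and 713 bp. Read depth is unknown. Because the lists differ in length, results were also taken with each list limited to its 39194 widest peaks, and are given below where this changed them. Of 8 genes of the embryonic kidney list, 6 (75%) had a control peak within 1 kb of an end of the gene, beside 66.1% of all protein-coding genes, so this list does not identify the cell type. PAX2 had none there in any list but had a peak within 1 kb of a start site in all 4, and HOXA11 was the reverse. Of 10 blood cell genes, 2 had a gene-end peak in control cells, and 3, 3 and 1 had one in the knockouts of IGF2BP1, IGF2BP2 and IGF2BP3. SPI1 had one in all 4 lists, while PTPRC, the common leukocyte antigen, CD14, LYZ, CD33 and MPO were among those with none in any list.

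The DNA just before the 4 genes' starts in the RefSeq promoter table is shown first, because none of it lay under a peak. That of CADM3, a cell adhesion gene, is shown too. Its 250 bases touched a peak in the IGF2BP1 and IGF2BP3 knockouts. The 250 bases before each start come from the RefSeq promoter table (GRCh38.p14) and are written 5′ to 3′. Capitals mark matches to the short motifs named after the sequences.
IFI16 first start, chr1:159008741-159008990, plus strand: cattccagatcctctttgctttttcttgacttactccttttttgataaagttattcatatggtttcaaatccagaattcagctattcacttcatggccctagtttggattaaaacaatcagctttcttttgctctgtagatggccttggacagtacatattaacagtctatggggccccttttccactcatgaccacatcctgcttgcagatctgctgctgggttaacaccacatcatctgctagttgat
IFI16 second start, chr1:159009657-159009906, plus strand: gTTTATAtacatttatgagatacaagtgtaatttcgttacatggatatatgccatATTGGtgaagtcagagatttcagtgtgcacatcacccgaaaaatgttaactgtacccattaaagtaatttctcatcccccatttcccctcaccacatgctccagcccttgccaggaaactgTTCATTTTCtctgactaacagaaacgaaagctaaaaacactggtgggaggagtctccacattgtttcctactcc
PYHIN1, chr1:158931302-158931551, plus strand: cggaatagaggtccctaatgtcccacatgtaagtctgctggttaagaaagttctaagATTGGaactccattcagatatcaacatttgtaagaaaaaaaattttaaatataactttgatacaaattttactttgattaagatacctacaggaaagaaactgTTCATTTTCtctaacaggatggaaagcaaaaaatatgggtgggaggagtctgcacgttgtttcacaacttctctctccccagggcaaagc
MNDA, chr1:158831101-158831350, plus strand: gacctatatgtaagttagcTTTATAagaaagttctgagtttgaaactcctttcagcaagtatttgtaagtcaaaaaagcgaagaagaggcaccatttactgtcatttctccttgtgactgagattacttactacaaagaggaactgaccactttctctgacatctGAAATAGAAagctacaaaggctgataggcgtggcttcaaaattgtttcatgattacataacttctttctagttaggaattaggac
AIM2, chr1:159076767-159077016, minus strand: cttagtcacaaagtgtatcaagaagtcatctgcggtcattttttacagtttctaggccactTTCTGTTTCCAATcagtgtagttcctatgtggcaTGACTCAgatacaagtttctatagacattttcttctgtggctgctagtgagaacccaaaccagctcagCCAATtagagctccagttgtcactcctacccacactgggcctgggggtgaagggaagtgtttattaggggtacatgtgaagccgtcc
CADM3, chr1:159171365-159171614, plus strand: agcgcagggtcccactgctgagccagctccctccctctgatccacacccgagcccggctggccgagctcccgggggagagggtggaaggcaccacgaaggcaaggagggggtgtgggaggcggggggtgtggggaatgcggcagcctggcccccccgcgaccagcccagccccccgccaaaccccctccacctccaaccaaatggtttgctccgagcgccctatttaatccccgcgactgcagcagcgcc

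The motifs were searched on both strands. They were the ISRE core GAAANNGAA (TTCNNTTTC on the other strand), bound by interferon regulatory factors, the GAS element TTCNNNGAA, bound by STAT dimers, AP-1 TGANTCA, CRE TGACGTCA, the GC box GGGCGG, the CCAAT box CCAAT, the TATA box TATAAA, the PU.1 core GAGGAAGT, the E-box CACGTG and a TEAD motif ACATTCC. An ISRE core match was present at the second IFI16 start and at PYHIN1, MNDA and AIM2, 1 at each, and at neither the first IFI16 start nor CADM3. Across 22197 promoters of protein-coding genes, 6.07% held such a match, and 11.2% of the 4066 promoters with no more than 3 CpG dinucleotides did. The IFI16 and PYHIN1 matches have the same letters, TTCATTTTC, inside the longest run those promoters share, gaaactgTTCATTTTCtct (19 bases, starting 81 bases before the second IFI16 start and 97 before the PYHIN1 start). MNDA held GAAATAGAA, and the AIM2 match TTCTGTTTC shares a base with a CCAAT box beside it. AIM2 also held an AP-1 match (5.36% of all promoters and 12% of those with no more than 3 CpG), and CADM3 held no motif of the list. These are matches of letters, not measured sites.

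The PYHIN promoters resembled one another in composition and stood low among all promoters. Their GC content was 40.4% at both IFI16 starts, 36.4% at PYHIN1, 36% at MNDA and 45.6% at AIM2, against a median of 62%. They held 0, 3, 2, 2 and 2 CpG dinucleotides in the same order, against a median of 16, and CADM3 held 16 at 70.4% GC. PYHIN1 and MNDA were alike at 61.1% of alignment columns, gaps included, and the second IFI16 start and PYHIN1 at 55.8%. The other PYHIN pairs, at 49.8 to 52.1%, were no more alike than PYHIN promoters and that of PYDC5 (50.7 to 53.4%), which has a similar GC content of 37.6%. Alignments with the GC-rich CADM3 promoter gave 41.6 to 47.6%. Promoters with 0 to 2 CpG rarely had peaks in any of these cells. Of 3074 such promoters, 5.3% touched a peak in the control and 7.94%, 7.87% and 5.14% did in the knockouts of IGF2BP1, IGF2BP2 and IGF2BP3. The shares for promoters with 10 or more CpG were 83.8%, 85.5%, 83.4% and 84.3%. No list had a peak at 89.7% of the promoters with 0 to 2 CpG, nor at 69.7% of the 4583 with 3 to 9, the class of the second IFI16 start, so the lack of a peak was the common case for promoters like these.

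**Figure D1:**
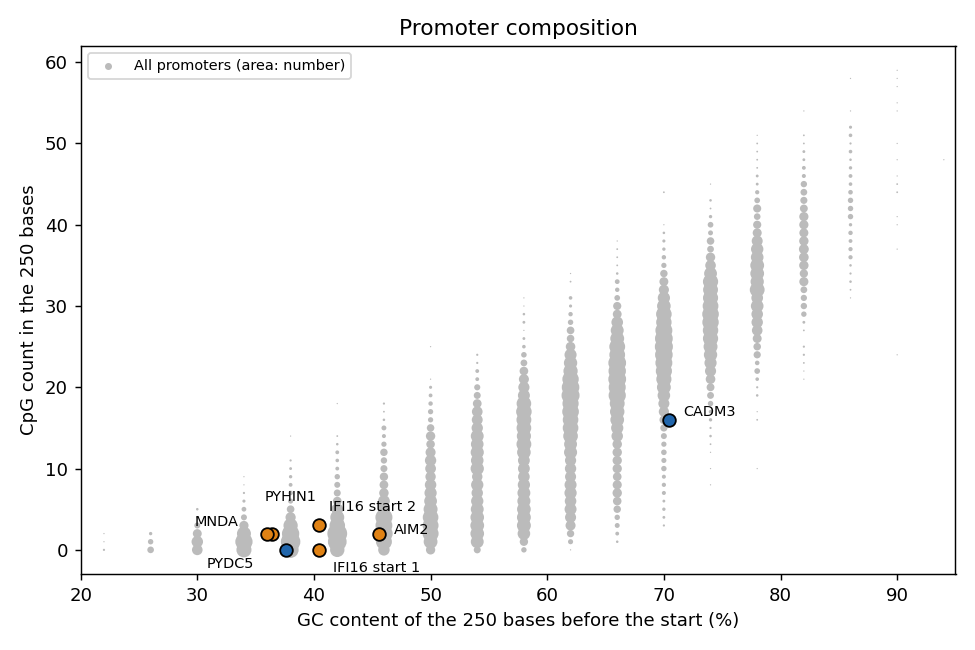
GC content (horizontal axis, percent) and number of CpG dinucleotides (vertical axis) in the 250 bases before each annotated start. Grey circles are counts of all 22197 promoters by area, in steps of GC content, orange points are the PYHIN starts and blue points CADM3 and PYDC5. The PYHIN starts lie at 0 to 3 CpG and 36 to 45.6% GC, far below the median promoter.

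The window around the 4 genes ran from 158781351 to 159197132 on chromosome 1 (GRCh38), 416 kb, and overlapped 15 annotated genes. MNDA spans 158831351 to 158849502, PYHIN1 158931552 to 158990870, IFI16 158999976 to 159055151 and AIM2 159055051 to 159147132, with AIM2 on the minus strand and the others on the plus strand. The control, IGF2BP1 knockout and IGF2BP3 knockout lists each had 3 peaks in the window and the IGF2BP2 knockout list had 5. These counts came to 7.22 peaks per Mb in each of the first 3 lists and 12 in the IGF2BP2 knockout, below the genome-wide densities of 12.9, 16.7, 14.4 and 19.8 in the control and the IGF2BP1, IGF2BP3 and IGF2BP2 knockouts. The window was not an unusually empty one. Of all consecutive windows of that length on chromosomes 1 to 22 and X, 44.1% held as few peaks or fewer in the control, 31.6% in the IGF2BP1 knockout, 37.2% in the IGF2BP2 knockout and 37.8% in the IGF2BP3 knockout.

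Peaks were unevenly placed within the window. No list had a peak in the first 217 kb, which hold MNDA, PYHIN1 and part of the olfactory receptor gene OR6N1. The nearest peak to the MNDA start was 301 kb away in the control and 167 kb in each knockout list, where it was the site near IFI16. For the PYHIN1 start, the distance was 201 kb in the control and 66.9 to 67.1 kb in the knockouts. Around the AIM2 start at 159076766, the nearest peak was 55.5 kb away in the control and 55.4 kb in the IGF2BP2 knockout, and 77.7 and 77.6 kb in the IGF2BP1 and IGF2BP3 knockouts. None of the 4 genes had a peak within 1 kb of a start in the RefSeq promoter table, in any list. Of 15843 protein-coding genes with a start in the table, 27.1% had none in any list either.

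**Figure D2:**
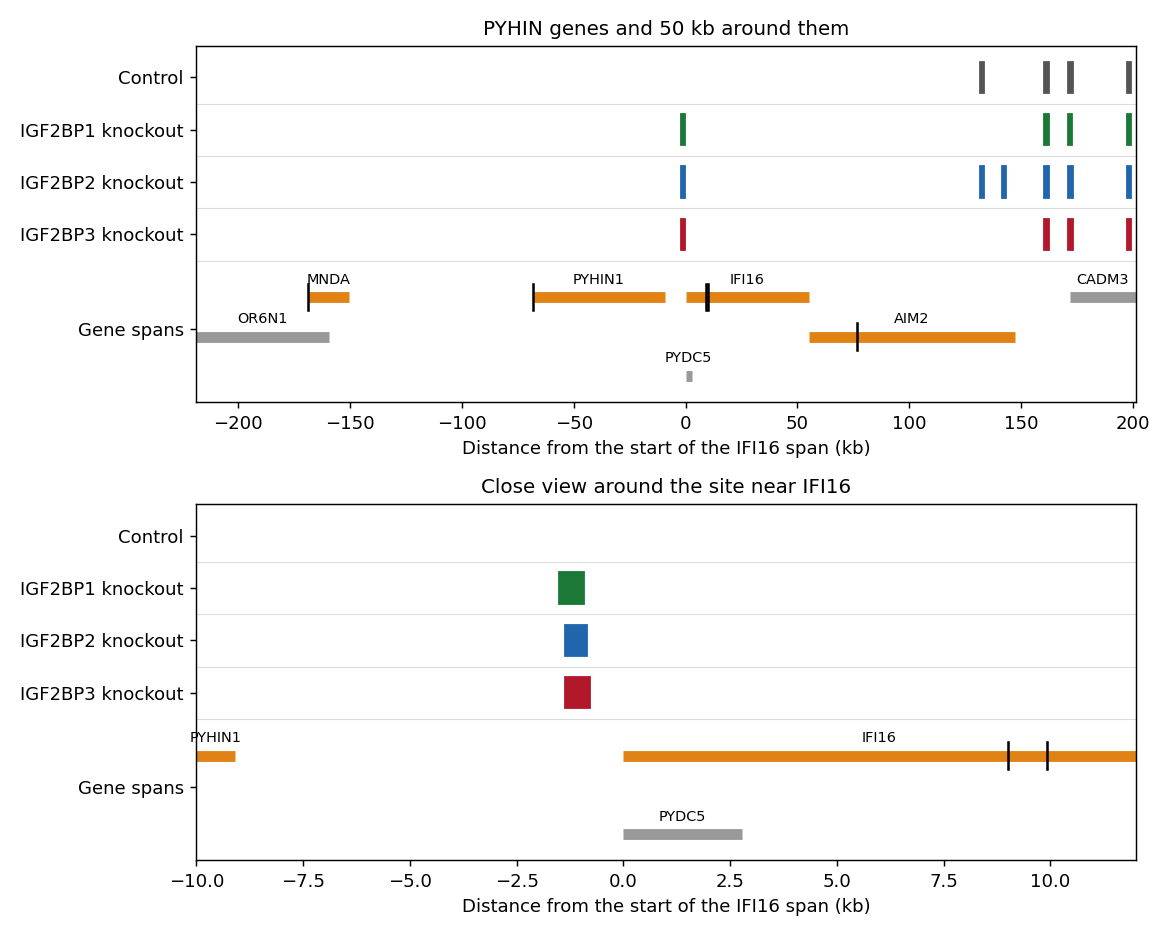
Peaks of the 4 lists (upper rows of each panel) and gene spans (lower rows) by distance in kb from the start of the IFI16 span, with PYHIN genes in orange, other coding genes in grey and vertical ticks at the annotated starts of the PYHIN genes. In the upper panel peaks are widened to 2 kb to be visible, and the right-most peak of each list lies just outside the window. In the lower panel, drawn to scale, the 3 knockout peaks overlap to the left of IFI16 and the control row is empty.

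The site near IFI16 was held by the 3 knockout lists. The IGF2BP1 knockout peak spanned 158998465 to 158999050 (586 bp), the IGF2BP2 knockout peak 158998604 to 158999114 (511 bp) and the IGF2BP3 knockout peak 158998614 to 158999184 (571 bp). All 3 had 437 bp in common, from 158998614 to 158999050, 60.7% of the 720 bp that any of them covered. The IGF2BP2 and IGF2BP3 knockout peaks were the closest pair, with 86.2% of their joint length in both and centres 40 bp apart. The IGF2BP1 knockout peak extended further toward PYHIN1, and its centre lay 102 and 142 bp from those of the other peaks. Of all merged regions, 6.88% were held by the 3 knockout lists and not by the control, beside 1 of the 5 of the cluster. Since IFI16 was picked for this pattern, nothing is read from that count. With each list limited to its 39194 widest peaks, the IGF2BP3 knockout alone kept its peak here, and the cluster had 0 regions of this kind. With peaks trimmed to 200 bp, the cluster still had 1 region of this kind, but only 1 knockout list had a peak within 1 kb of an end of IFI16.

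In position, the site lay between PYHIN1 and IFI16, outside every annotated gene span. Its peaks were 7.59 to 7.74 kb beyond the end of PYHIN1 and ended 926, 862 and 792 bp before the IFI16 span in the knockouts of IGF2BP1, IGF2BP2 and IGF2BP3. PYDC5, on the minus strand, has its 3′ end there as well, 921, 857 and 787 bp from the same peaks. The RefSeq promoter table places the IFI16 starts inside the span, at 159008991 and 159009907, so the peaks were 9.81 to 9.94 kb before the first start and 10.7 to 10.9 kb before the second. They counted as a gene-end peak of IFI16 because the gene span, which joins all transcript models, begins before those starts. Which transcript reaches the span start was not determined. The site may therefore lie just upstream of an IFI16 start that the table does not hold. With start sites in place of gene ends, IFI16 had a peak in 0 of the 3 knockout lists.

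Gene-end peaks absent from the control and present in a knockout were not rare. Of 6789 protein-coding genes without one in the control, 8.88% had one in the IGF2BP1 knockout, 9.57% in the IGF2BP2 knockout and 6.85% in the IGF2BP3 knockout, and 3.48% (236 genes) had one in all 3. At start sites the corresponding shares of 4918 genes were 7.91%, 8.76%, 6.34% and 3.31%. Among the 236 genes, 178 have a start in the table. A peak lay within 1 kb of such a start in all 3 knockouts at 137 of them (77%). IFI16 was among 28 (15.7%) with no peak within 1 kb of a start in the table in any list.

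By width, the site lay below the median of each knockout list. Its peaks stood at the 20.3, 29.7 and 33 percentile of width for IGF2BP1, IGF2BP2 and IGF2BP3 in turn, at 0.703, 0.785 and 0.801 of the list medians. Against the other regions held by the 3 knockouts alone, 25.9%, 31.1% and 50.9% of the peaks were narrower. Peaks of like width (within 50 bp) often had no control counterpart. This held for 46.3% of 5808 peaks in the IGF2BP1 knockout (Wilson 95% interval 45 to 47.5), 54.2% of 10370 in the IGF2BP2 knockout (53.2 to 55.1) and 36.4% of 5880 in the IGF2BP3 knockout (35.1 to 37.6). Presence in the other knockout lists as well was less common, at 13.6%, 11% and 15.6%. These intervals cover counting error over peaks only.

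The site stood apart from the rest of the cluster in how far it lay from other peaks. The nearest peak of its own list was 162 kb away in the IGF2BP1 knockout, 133 kb in the IGF2BP2 knockout and 162 kb in the IGF2BP3 knockout, against medians over all peaks of 15.3, 13.2 and 16.9 kb. Only 1.54%, 1.55% and 2.1% of peaks were as isolated. The other members lay 9.04 to 28 kb from their nearest neighbour, distances that 34.6 to 66.9% of the peaks of a list reached or exceeded. Toward lower coordinates, the next peak was 471, 492 and 649 kb from the site. The control list had no peak for 928 kb, from 158204277 to 159132259, a stretch exceeded by 218 of its 38928 gaps between neighbouring peaks (0.56%). Compared with other regions held by the 3 knockouts alone, whose median distance to a control peak was 25.3 kb, the 133 kb of this site was longer than 91.2% of 4925.

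The share of a list on chromosome 1 and beside the window was measured because it could move with peaks gained there. Chromosome 1 held 11.3% of control peaks and 10.7%, 11.2% and 10.4% of IGF2BP1, IGF2BP2 and IGF2BP3 knockout peaks. The 5 Mb on either side of the window held 165 control peaks below and 115 above it. The counts below and above were 186 and 130 in the IGF2BP1 knockout and 211 and 169 in the IGF2BP2 knockout. They were 168 and 100 in the IGF2BP3 knockout. As a share of the list, the peaks of both sides came to 0.869, 0.883 and 0.852 of the control share in the same knockouts. The share was thus lower in each of the longer knockout lists, while the counts were higher on both sides for IGF2BP1 and IGF2BP2.

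The other 4 regions lay at the opposite end of the cluster, from the higher-coordinate part of the AIM2 span to CADM3. AIM2 is on the minus strand, so that part is toward the 5′ end of its span. In the AIM2 span, the control had a peak at 159132259 to 159132726 (468 bp, percentile 13.2) and the IGF2BP2 knockout a wider one over it at 159132191 to 159132911 (721 bp, percentile 58.7). The IGF2BP1 and IGF2BP3 knockouts had none. This combination was uncommon, at 1.61% of all regions. The IGF2BP2 knockout alone had a further peak in that span at 159141956 to 159142426 (471 bp, percentile 22.5), 272 bp from the arginine tRNA gene TRR-TCT4-1. Regions in that list alone made up 15.2% of all regions. Both AIM2 sites were 55.4 to 65.2 kb upstream of the AIM2 start in the table. Whether they fall in an exon or an intron of a longer transcript was not determined.

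A pair of regions was present in all 4 lists, as were 41.5% of all regions. One lay 13.6 to 14 kb beyond the 5′ end of the AIM2 span and 9.82 to 10.2 kb before the CADM3 start. Its peak was 974 bp wide in the control (159160735 to 159161708), and 1018, 665 and 328 bp wide after knockout of IGF2BP1, IGF2BP2 and IGF2BP3. The IGF2BP3 knockout peak was narrow for its list (percentile 3.74) and lay wholly inside the control peak. At the CADM3 start, the order of the same lists differed. Widths were 332 bp in the control (159171887 to 159172218, percentile 3.05), 1008 and 711 bp in the knockouts of IGF2BP1 and IGF2BP2, and 1217 bp for IGF2BP3 (159171294 to 159172510, percentile 85). The control and IGF2BP2 knockout peaks began 272 and 126 bp after the CADM3 start, and the peaks of the other lists covered it. The list with the widest peak at CADM3 had the narrowest of the 4 at the neighbouring region. The width of a peak depends on calling as well as on signal, and its spread between replicates is unknown.

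**Figure D3:**
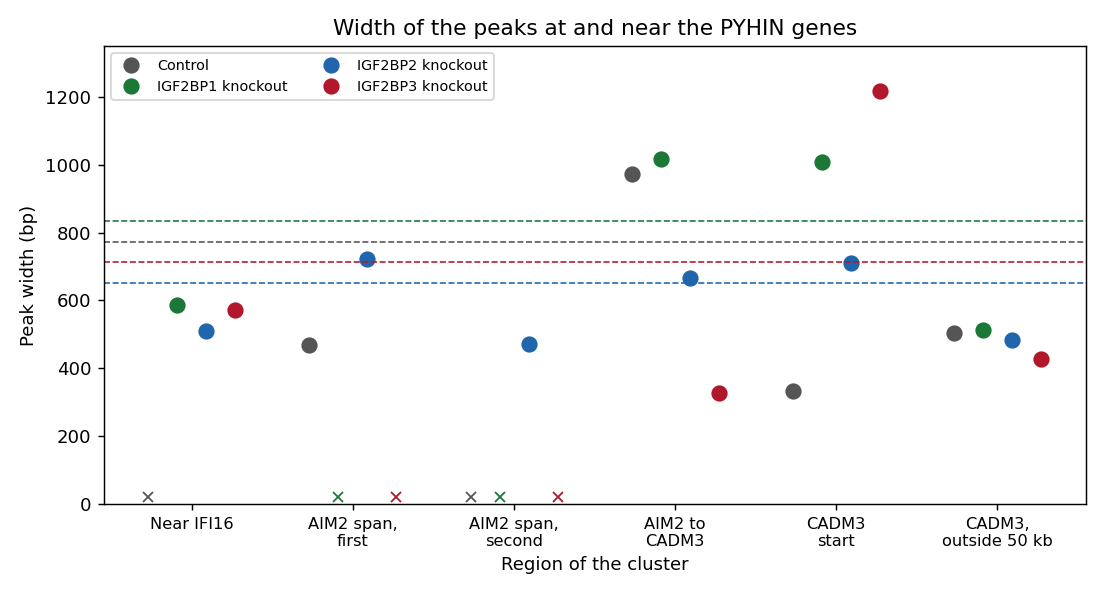
Width in bp (vertical axis) of each peak by region (horizontal axis) and list (colour), with dashed lines at the list medians and crosses at the foot where a list has no peak. The site near IFI16 has 3 peaks of 511 to 586 bp and no control peak, and the regions before and at CADM3 range from 328 to 1018 bp and from 332 to 1217 bp.

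The 50 kb limit fell between the CADM3 start region, whose near edge was 24.6 kb inside it, and a second CADM3 site, 759 bp outside. The latter was held by all 4 lists with closely placed peaks of 505 bp in the control and 512, 484 and 428 bp in the knockouts of IGF2BP1, IGF2BP2 and IGF2BP3. On the other side, the nearest region outside was 254 kb away, at 158527289 to 158527634 in the IGF2BP1 knockout alone.

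Other genes of DNA sensing and the inflammasome, 58 in all, were compared by counts of gene-end peaks. The list held 16 sensors, 13 adaptors, kinases and transcription factors, 16 regulators and 13 inflammasome genes. In the control, 40 of the 58 had at least 1 gene-end peak (69%). After knockout of IGF2BP1, IGF2BP2 and IGF2BP3, 43, 40 and 41 did (74.1%, 69% and 70.7%). For all 20037 protein-coding genes the shares were 66.1%, 68.4%, 68% and 66.8%. None of the 58 had a peak in the 3 knockouts and not in the control, the pattern at IFI16. Since 1.18% of all protein-coding genes had that pattern, a count of 0 among 58 does not set the list apart. The other sensors did not vary between lists. Of 16, 14 had a gene-end peak in every list, among them the helicases DDX41 and DHX9 and the DNA-repair proteins PRKDC, XRCC5, XRCC6 and MRE11. TLR9, also among the 14, had no peak within 1 kb of its start in the promoter table in any list. CGAS, the synthase of the STING ligand cGAMP, and ZBP1, a sensor of Z-form nucleic acid, had none in any list.

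Some genes downstream of the sensors differed from the control in 1 or 2 knockout lists. Among all protein-coding genes without a control gene-end peak, 8.88%, 9.57% and 6.85% had one in the knockouts of IGF2BP1, IGF2BP2 and IGF2BP3. The share of all genes that lost a control peak, or gained one in 2 lists, is not given here. Nothing is therefore read from the changes that follow. Of 13 adaptors, kinases and transcription factors, 11 had a peak in the control, the IGF2BP1 knockout and the IGF2BP3 knockout and 9 in the IGF2BP2 knockout. STING1, the gene of STING, and IKBKG had no gene-end peak in any list, but IKBKG had a peak within 1 kb of a start in all 4. The IGF2BP2 knockout lacked peaks at MYD88, the adaptor of Toll-like receptors (989, 1204 and 1042 bp in the control and the IGF2BP1 and IGF2BP3 knockouts), and at IRF7, an interferon regulatory factor (626, 815 and 378 bp). Among 16 regulators, TREX1, the exonuclease that degrades cytosolic DNA, had a peak in the IGF2BP1 and IGF2BP2 knockouts only (711 and 695 bp), and the other 15 did not vary between lists. Most inflammasome genes had no gene-end peak, as was the case for AIM2. Of 13, 10 lacked one in every list, among them CASP1, IL1B, IL18 and GSDMD, beside 29.1% of all protein-coding genes, and CASP8 had one in all 4. PYCARD, the adaptor that AIM2 binds, had a peak in the IGF2BP1 knockout (999 bp) and the IGF2BP3 knockout (410 bp). NLRP3, another inflammasome sensor, had one in the IGF2BP1 and IGF2BP2 knockouts (690 and 461 bp), with no peak within 1 kb of its start in any list.

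Gene clusters that are also induced by interferon were measured in windows drawn in the same way. The IFIT window on chromosome 10 was dense, at 41.1 control peaks per Mb, and each of the 5 IFIT genes had a gene-end peak in every list. Over all protein-coding genes, 66.1%, 68.4%, 68% and 66.8% had one in the control and the knockouts of IGF2BP1, IGF2BP2 and IGF2BP3. The GBP window on chromosome 1 held 14.5 control peaks per Mb and the OAS window on chromosome 12 held 4.88, so the PYHIN window, at 7.22, lay between these. In the IGF2BP2 knockout it also lay between the OAS (9.77) and GBP (27) windows. In the knockouts of IGF2BP1 and IGF2BP3 it was the sparsest of the 4, below 14.7 and 9.77 in the OAS window. The OAS window held only 1, 3, 2 and 2 peaks in the control and the knockouts of IGF2BP1, IGF2BP2 and IGF2BP3. The order of the OAS and PYHIN windows therefore turns on few peaks and is not read further. Of 7 GBP genes, GBP2 had a gene-end peak in every list, GBP1 in the IGF2BP1 and IGF2BP2 knockouts (912 and 1315 bp), GBP3 in the IGF2BP2 knockout and GBP6 in the IGF2BP1 knockout. OAS3 had one in the IGF2BP1 and IGF2BP3 knockouts (836 and 602 bp), and OAS1 and OAS2 had none. As a background, 8.88%, 9.57% and 6.85% of protein-coding genes without a control gene-end peak had one in the knockouts of IGF2BP1, IGF2BP2 and IGF2BP3. Nothing is read from these few calls at GBP and OAS genes. Regions held by the 3 knockouts and not by the control numbered 1 of 5 in the PYHIN window and 0 of 14, 11 and 3 in the GBP, IFIT and OAS windows. With 1 such region in all, these counts do not set the PYHIN window apart.

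**Figure D4:**
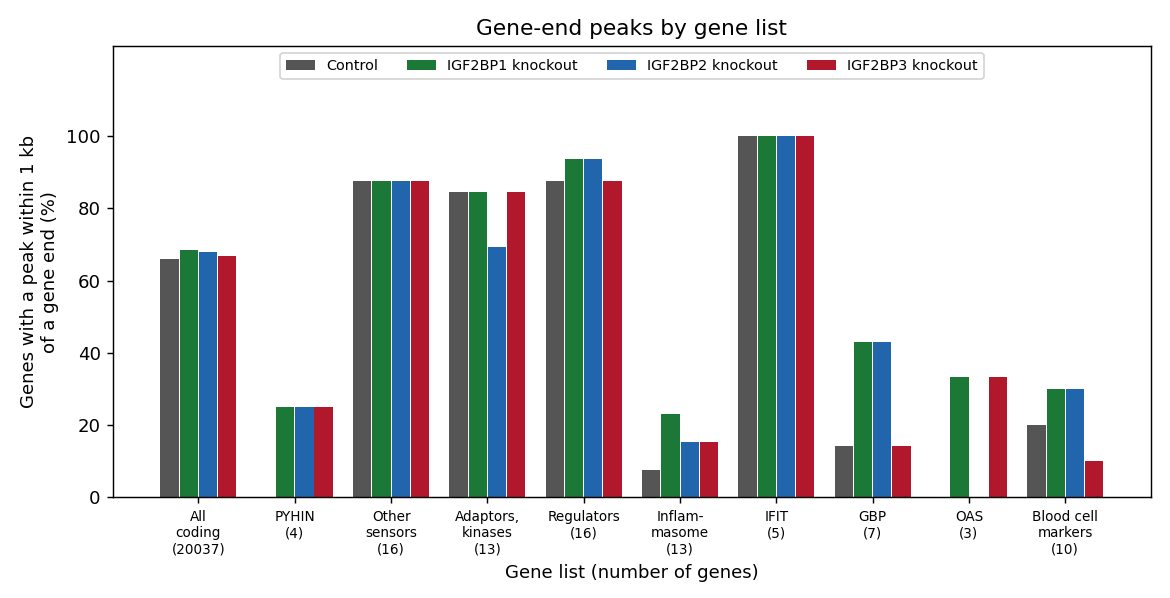
Percent of genes with a peak within 1 kb of a gene end (vertical axis) by gene list, with the number of genes in brackets, and by peak list (colour). IFI16 is the 1 of 4 PYHIN genes (25%) behind the bars of the 3 knockouts, the other sensors stand at 87.5% in all 4 lists, and blood cell markers range from 10 to 30%.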

How the data were processed

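ATAC-seq peak lists of HEK293T cells were used, 1 per group, covering 9 libraries. The authors deposited each list as chromosome, start and end of every peak, with no height, score or p-value. The submitters' processing notes name fastp 0.24.1, BWA 0.7.17, MACS2 3.0.0, bedtools and the build GRCh38. Thresholds, the transposase offset and how libraries were combined are not given in the sources used here.

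Starts were converted to count from 1. Peaks sharing at least 1 bp were merged into regions. A gene-end peak lies within 1 kb of either end of a RefSeq gene span (GRCh38.p14), and a start-site peak within 1 kb of a start in the RefSeq promoter table, which held starts of 15843 of 20037 protein-coding genes. That second measure, and the width percentile in a peak's own list (ties at the middle), have no error estimate. Python 3.11.15, numpy 2.4.6, pandas 2.3.3, scipy 1.17.1 and Biopython 1.88 were used. Interval functions were tested on simulated peaks. No test across lists was made.

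The members and gene lists were chosen with earlier results of these data known. Named were the 4 PYHIN genes, genes in the window, listed genes whose gene-end peak differed from the control in any knockout, and the genes most like IFI16 in peak widths, of which 1 is not reported here. All 58 DNA sensing symbols matched the RefSeq table. Other genes were named as examples after their values were seen. The sequence of the peaks was not analysed here.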

Additional observations from a re-analysis of the deposited data

How the results depend on the processing

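No paired analysis was possible because each group is 1 list with no values per library, and for the same reason no library could be left out. Of 96 values recomputed under other settings, 89 stayed within 1.5 times their count, or within the 95% Poisson interval of a density. The densities restate the peak counts, and their interval, on 3 or 5 peaks, is too wide to leave easily. With only the widest peaks kept in the IGF2BP2 knockout, 5 peaks falling to 3 counted as moved, but 12 per Mb falling to 7.22 did not. The 89 is therefore no measure of the IFI16 result, whose changes are given below. Keeping only the 39194 widest peaks of each list left 3 peaks near the PYHIN genes in the IGF2BP2 knockout, 1 region there in all 4 lists and 0 in the 3 knockouts without the control. The IGF2BP1 and IGF2BP3 knockouts kept 2 peaks each there (4.81 per Mb). DNA sensing genes with a gene-end peak numbered 42, 38 and 40 in the 3 knockouts in turn. Peaks at NLRP3 (461 bp), GBP3 (525 bp) and the second AIM2 site (471 bp) in the IGF2BP2 knockout dropped out. So did that at IRF7 (378 bp) in the IGF2BP3 knockout. Under that setting IFI16 had a gene-end peak in 1 knockout list, that of IGF2BP3, because its peaks of 586 and 511 bp were below the 612 and 541 bp kept in the IGF2BP1 and IGF2BP2 knockouts. With peaks trimmed to 200 bp, the cluster still had 1 region in the 3 knockouts without the control. Trimming left 1 knockout list with a peak within 1 kb of an end of IFI16. The number was 0 with gene ends taken within 500 bp, and 0 with annotated starts, an alternative chosen after seeing the data. It was 3 with gene ends within 2 kb and with peaks closer than 500 bp merged. Windows of 25 and 100 kb and an overlap of 50% of the shorter peak changed no count of regions beyond 1.5 times. The lists carry no depth.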

Other observations

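The genes most like IFI16 were sought among the 235 other protein-coding genes with a gene-end peak in the 3 knockout lists and none in the control, by the summed absolute log2 ratio of their peak widths to those at IFI16 over the 3 lists. PYDC5 came first at 0.00, since it is measured on the same peaks. ADAMTS4, a protease of the extracellular matrix also on chromosome 1, stood at 0.21, with peaks of 591, 549 and 536 bp for IGF2BP1, IGF2BP2 and IGF2BP3 in turn. C1QL2 on chromosome 2 (537, 541 and 566 bp) and NCR2 on chromosome 6, an activating receptor of natural killer cells (542, 476 and 574 bp), both stood at 0.22. C1QL2 and NCR2 had a peak within 1 kb of a start in the promoter table in the same 3 lists, where IFI16 had none.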
